A study of Mus musculus with 4 samples.

Results

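The genes described are 10 smooth muscle and contractile genes in OP9 cells: Acta2, Actg2, Tagln, Cnn1, Myh11, Myl9, Smtn, Des, Tpm1 and Tpm2. They were taken by name, and all 18 array probes that the annotation assigns to them were used, of 41174 probes for 27597 genes on the array. OP9 is a stromal cell line from mouse bone marrow, used in culture to support blood progenitors, and the study asked how Wnt signalling acts on such supporting cells. The 2 Wnt3A samples carried the retroviral vector LZRS-IRES-GFP with the Wnt3A gene inserted, and the 2 Control samples carried the same vector without it. Both groups were therefore cells of 1 line that held a vector with a GFP reporter, and each sample was hybridised to 1 array of 1 colour. Nothing in the labels tells whether the replicates of a group were separate cultures. The p-values below therefore measure only the spread between these samples, which may be technical.

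Smooth muscle cells contract when myosin filaments pull on filaments of smooth muscle actin. Calcium signalling sets the force through phosphorylation of the myosin regulatory light chain, and calponin, transgelin and the tropomyosins bind along the actin filament. Serum response factor, with its coactivators myocardin and the myocardin-related factors, drives many of these genes through a promoter element called the CArG box. Part of the set, Acta2 and Tagln above all, is also made by myofibroblasts and cultured stromal cells, so that it is not confined to muscle.

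The values are linear intensities from the table that the authors deposited, in which every array has a median of 1. Between 80.7% and 83.7% of spots lay above an estimated detection floor of 0.0533 to 0.0729. The scanner flags, from which the factor for this floor was taken, put 41.8% to 85.7% of spots well above background. Changes are differences of log2 values, Wnt3A minus Control, after each array was scaled to its own 75th percentile, so a positive change means a higher value in Wnt3A cells. The scanner files deposited beside the table gave the members other changes, and the values from both sources are given after the members. The Wnt3a probe read 0.0112 and 0.123 in the Wnt3A arrays, against 0.0151 and 0.0134 in the Control arrays, and lay above the floor on 1 Wnt3A array. The labels do not say which stretch of the gene the vector carried, so this probe does not check the labels. Markers of stromal cells were measured, and all 12 genes of that list were above the floor on both arrays of a group. Their summed level after scaling was 472 and 481 in the Wnt3A arrays, against 359 and 466 in the Control arrays.

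Some of the probes on which the results turn are shown here, since the probes of a gene did not always give the same change. The first bases of the messages are counted from 1 in the transcript that the array annotation names. The probes at base 298 of Acta2 and base 478 of Tagln are given whole, in lower case. The probes at bases 1241 of Acta2 and 980 of Tagln lie nearer to the 3′ end, and only their first 30 bases are given.
Acta2 298: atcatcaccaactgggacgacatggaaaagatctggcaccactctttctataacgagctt
Acta2 1241: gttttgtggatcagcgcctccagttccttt
Tagln 478: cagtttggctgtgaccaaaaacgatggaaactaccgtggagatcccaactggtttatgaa
Tagln 980: ctttgaaggagacccagcccagcctctaca
On build mm8, the array annotation places the Acta2 probe at base 298 on the minus strand at chr19:34314502-34317756, a span longer than the probe, and the probe at base 1241 at chr19:34307567-34307626. The Tagln probes lie on the minus strand at chr9:45681828-45681887 for base 478 and at chr9:45681009-45681068 for base 980. Exon, intron and UTR are not assigned, since this needs a genome sequence, and none was used here.

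The tropomyosin pair shown next was chosen because it holds the stretch of sequence that member probes share. When each member probe was laid without gaps against all 41174 probes, with at least 30 bases of overlap, the probes at base 560 of Tpm1 and base 486 of Tpm2 were the pair found to be alike. Capitals mark the 33 bases in which they overlap, and 27 of these are identical, or 81.8%.
Tpm1 560: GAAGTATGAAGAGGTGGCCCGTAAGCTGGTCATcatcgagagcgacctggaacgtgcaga
Tpm2 486: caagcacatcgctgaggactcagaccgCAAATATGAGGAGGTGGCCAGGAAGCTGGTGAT
The annotation places the Tpm1 probe at chr9:66831962-66833032 and the Tpm2 probe at chr4:43540378-43540528 on build mm8, both on the minus strand. How much of the message of one gene binds the probe of the other was not tested, nor whether the actin probes tell the actin genes apart, since full transcripts were not used here.

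None of the 10 genes passed the threshold of an adjusted p of 0.05 between Wnt3A and Control cells. In the deposited table, by the probe with the highest mean of each gene, Acta2, Actg2, Tagln, Myl9 and Tpm1 read higher in Wnt3A cells. Smtn, Tpm2, Des and Myh11 read lower there, and the groups of Cnn1 overlapped. In the scanner files 9 of the 18 member probes kept their sign and 8 had the opposite sign. Of all probes tested in both sources, 50.1% had the same sign. By limma with Benjamini-Hochberg adjustment over 33709 tested probes, 0 of the 18 member probes were called in either direction, where 0.424% of all probes were called higher and 0.255% lower. At an unadjusted p below 0.05, 4 member probes were higher and 1 was lower, where 6.95% and 6.54% of all probes were. The higher ones were Myl9 and the probes at bases 1241 and 1604 of Acta2 and base 478 of Tagln. Counted by the probe with the highest mean, 1 of the 10 genes was higher and 1 lower, where 1443 and 1450 of 22859 genes were. The groups did not overlap for 8 probes that were higher and 5 that were lower in Wnt3A cells, where 22.2% and 22.9% of all probes showed such a separation. With 2 arrays a group an exact two-sided test cannot give a p below 0.333, and the smallest changes that limma called were 3.25 among higher and −3.10 among lower probes. The changes of all member probes were smaller than these.

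The median change was 0.38 over the 18 member probes and close to 0 over all probes. Taking the probe with the highest mean for each gene, 5 genes were higher and 5 lower with a median of 0.19, beside a median of −0.01 over all 22859 genes, of which 49% were above and 51% below 0. The median absolute change of the member probes was 0.69, beside 0.44 over all probes, and their median SD within a group was 0.21, beside 0.41. By gene the median absolute change was 0.65 beside 0.41, and the median SD 0.21 beside 0.38. The members were chosen with earlier results of these data known, and they were not compared with probes of like intensity. In bulk RNA, fewer cells of a type and less RNA per cell cannot be told apart, and this holds for each gene below.

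**Figure D1:**
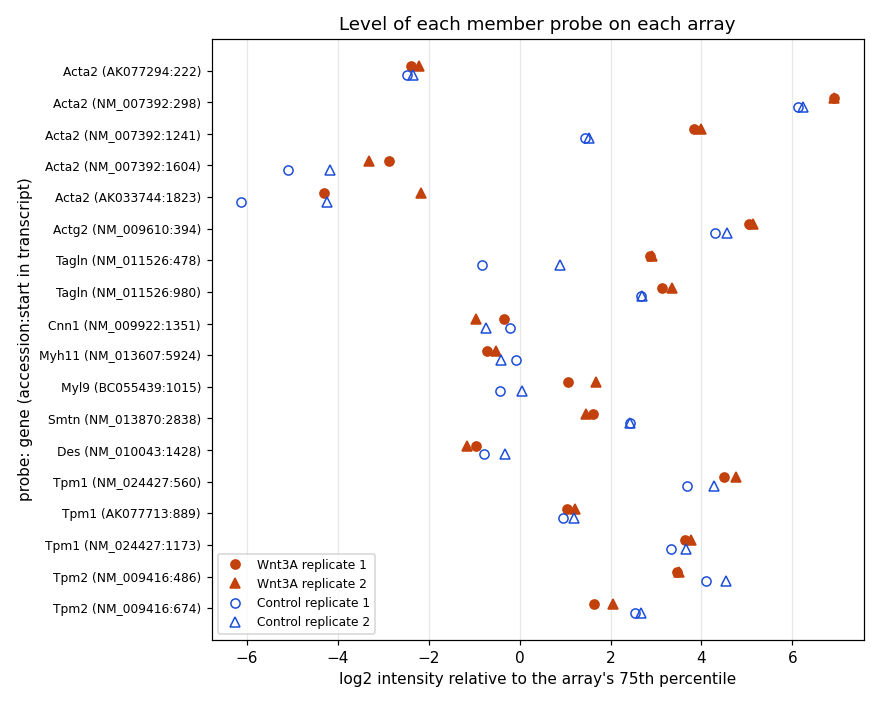
Table intensity (log axis) of each member probe on the 4 arrays, with Wnt3A arrays as filled red points and Control arrays as open blue points. The probes at base 1241 of Acta2 and base 478 of Tagln separate the groups most widely, while the points of Cnn1 overlap.

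The smooth muscle actins form the thin filament, and Acta2, smooth muscle alpha-actin, is also the usual marker of myofibroblasts. Its brightest probe, at base 298, read 578 and 591 in the Wnt3A arrays, against 327 and 383 in the Control arrays. Both Wnt3A values lay above both Control values. The change was 0.73 ± 0.30 (SE, n = 2 each), a 1.66-fold difference with a limma adjusted p of 0.406 and a 95% interval of −0.07 to 1.54.

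The Acta2 probe at base 1241 is printed in 10 spots on the array, and its mean over spots was 68.7 and 77.5 in the Wnt3A arrays, against 12.7 and 14.6 in the Control arrays. Single spots ranged over 65.5 to 74.7 and 71.6 to 95.2 in the Wnt3A arrays, and over 12.0 to 13.2 and 13.8 to 15.3 in the Control arrays. No spot of one group reached the range of the other, but the spots of an array are repeat readings of 1 sample and add no replicates. The change was 2.43 ± 0.30, or 5.39-fold, with a 95% interval of 1.62 to 3.24, and 4.76% of all tested probes had a larger absolute change. Its limma adjusted p was 0.0753, which missed the threshold. With a mean-variance trend and robust settings in limma the adjusted p was 0.0184, and that of the probe at base 298 was 0.0457, so 2 member probes were called higher there, both of Acta2, where 0.573% of all probes were.

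**Figure D2:**
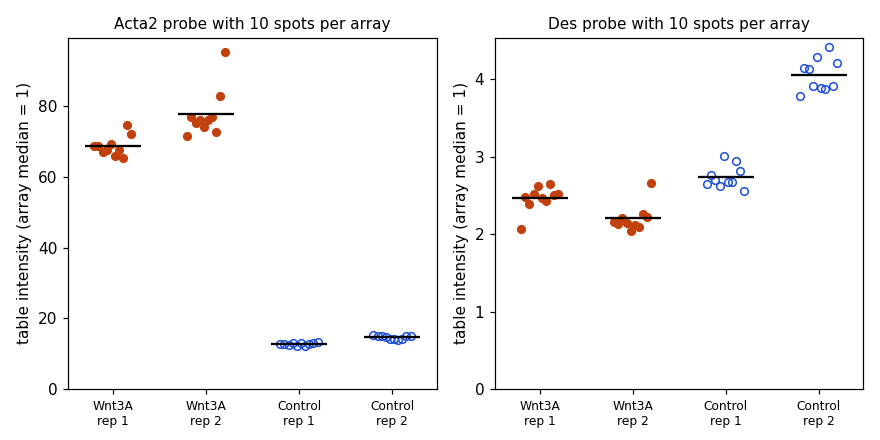
Intensity of each of the 10 spots of the Acta2 probe at base 1241 and of the Des probe, by array, with Wnt3A arrays left of Control arrays. Acta2 spots lie between 65.5 and 95.2 in Wnt3A arrays and between 12.0 and 15.3 in Control arrays, while the Des ranges of the groups overlap.

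The probes of Acta2 thus gave changes of different size in the same samples. On each array the log2 value of the probe at base 1241 minus that of the probe at base 298 was −3.07 and −2.93 in Wnt3A cells, against −4.68 and −4.71 in Control cells. The groups differed in it by 1.69 ± 0.07, and a scaling factor for a whole array does not alter it. This SE is an ordinary one from 2 values a group, whereas the SEs of single probes come from limma, so their sizes cannot be compared. The remaining Acta2 probes were dim. The probe at base 1604 read 0.656 and 0.491 in Wnt3A arrays, against 0.137 and 0.282 in Control arrays, a change of 1.54 ± 0.46 (adjusted p 0.294). The probe at base 222 of a cDNA clone read 0.913 and 1.05 in Wnt3A arrays, against 0.847 and 1.00 in Control arrays, and the groups overlapped. At base 1823 of another clone the probe read 0.244 and 1.09 in Wnt3A arrays, against 0.0675 and 0.267 in Control arrays, of which 1 was above the floor. It was the single member probe that was not above the floor on all 4 arrays.

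Actg2, the gamma-actin of enteric smooth muscle, was measured by 1 probe, which read 159 and 172 in the Wnt3A arrays, against 93.3 and 121 in the Control arrays. The groups did not overlap, and the change was 0.65 ± 0.31, or 1.57-fold, with an adjusted p of 0.476. For background, the actins that every cell uses had small changes. Actb read 374 and 434 in Wnt3A arrays, against 416 and 489 in Control arrays, with a change of −0.15 ± 0.30. The change of Actg1 was −0.06 ± 0.30. Of the striated muscle actins, which are near-identical in protein to the smooth muscle ones, cardiac Actc1 read 83.9 and 92.7 in Wnt3A arrays, against 13.9 and 28.5 in Control arrays (change 2.16 ± 0.44, adjusted p 0.165). Skeletal Acta1, named after its values were seen, read 41.8 and 43.2 in Wnt3A arrays, against 12.1 and 19.01 in Control arrays, a 2.83-fold difference (adjusted p 0.205). Neither passed the threshold.

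Tagln encodes transgelin, or SM22-alpha, an actin-binding protein that appears early when smooth muscle genes are switched on. Its probe at base 478 read 34.9 and 36.7 in the Wnt3A arrays, against 2.67 and 9.41 in the Control arrays. Its change was 2.85 ± 0.65, or 7.21-fold, the largest of the 18 member probes, with an adjusted p of 0.201 and a 95% interval of 1.08 to 4.62. The Control arrays differed from each other by more than the Wnt3A arrays did. The brighter Tagln probe, at base 980, read 42.0 and 50.2 in Wnt3A arrays, against 30.04 and 32.9 in Control arrays, a change of 0.56 ± 0.31 (adjusted p 0.534). Both probes put the Wnt3A arrays above the Control arrays, with sizes that differed between probes. The log2 value of the probe at base 478 minus that at base 980 was −0.27 and −0.45 in Wnt3A cells, against −3.49 and −1.81 in Control cells. That is a change of 2.29 ± 0.85 (ordinary SE, not from limma). Of the Acta2 probes at bases 298 and 1241 the one nearer to the 3′ end gave the larger change, whereas in Tagln it gave the smaller. The dim Acta2 probe at base 1604, nearer still to the 3′ end, gave 1.54, less than that at base 1241.

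Cnn1, calponin, binds actin and slows the myosin motor. It read 3.76 and 2.52 in the Wnt3A arrays, against 4.05 and 3.01 in the Control arrays. The groups overlapped, and the change was −0.17 ± 0.40 with a 95% interval of −1.26 to 0.92. Cnn1 thus had the opposite sign to Tagln, its relative with a calponin-like domain, but its sign turned when Control replicate 1 or Wnt3A replicate 2 was left out, to 0.10 and 0.13.

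Smtn encodes smoothelin, an actin-associated protein of contractile smooth muscle cells. It read 14.6 and 13.6 in Wnt3A arrays, against 25.2 and 27.2 in Control arrays, so both Wnt3A values were the lower ones and the replicates lay close together. The change was −0.89 ± 0.30, a ratio of 0.54, with a limma adjusted p of 0.334. Smtn was the member probe that was lower at an unadjusted p below 0.05.

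The motor protein and its light chain did not give the same sign. Myh11, the smooth muscle myosin heavy chain and the most restricted of the markers to mature smooth muscle, read 2.92 and 3.42 in the Wnt3A arrays, against 4.46 and 3.81 in the Control arrays, a change of −0.37 ± 0.32 (adjusted p 0.701). Myl9, the regulatory light chain whose phosphorylation starts contraction, read 9.998 and 15.8 in the Wnt3A arrays, against 3.47 and 5.23 in the Control arrays. For Myl9 the groups were apart and each also spread within itself. Its change was 1.57 ± 0.40, or 2.97-fold, with an adjusted p of 0.234, and 10.9% of all tested probes had a larger absolute change. Each of these genes has 1 probe, so no second reading was available.

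Tropomyosins are coiled coils that lie along actin filaments and gate the access of myosin. Tpm1 was read brightest at base 560, with 109 and 133 in the Wnt3A arrays, against 60.3 and 98.8 in the Control arrays, a change of 0.65 ± 0.37 (adjusted p 0.552). Its other probes, at base 1173 and at base 889 of a cDNA clone, gave changes of 0.21 ± 0.32 and 0.05 ± 0.31, and their groups overlapped. Tpm2 was read brightest at base 486, with 52.6 and 56.0 in the Wnt3A arrays, against 80.7 and 118 in the Control arrays. Both Wnt3A values lay below both Control values, with a change of −0.84 ± 0.33 (adjusted p 0.397). The second Tpm2 probe, at base 674, read 14.8 and 20.2 in Wnt3A arrays, against 27.2 and 32.2 in Control arrays, with a change of −0.76 ± 0.33 (adjusted p 0.436). The Tpm2 changes lay within the SE of each other.

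Des encodes desmin, the intermediate filament of muscle cells, and its probe is the other member that is printed in 10 spots. The mean over spots was 2.46 and 2.20 in the Wnt3A arrays, against 2.74 and 4.05 in the Control arrays. The Control arrays were both higher but differed from each other, and the change was −0.51 ± 0.34 (adjusted p 0.612). The spread of spots within an array was small beside this, with an SD of 0.074 to 0.107 on the log2 scale. Vim, the intermediate filament of stromal cells, read 155 and 131 in Wnt3A arrays, against 235 and 308 in Control arrays at its brighter probe (change −0.90 ± 0.32, adjusted p 0.358), while its other probe gave 0.53.

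**Figure D3:**
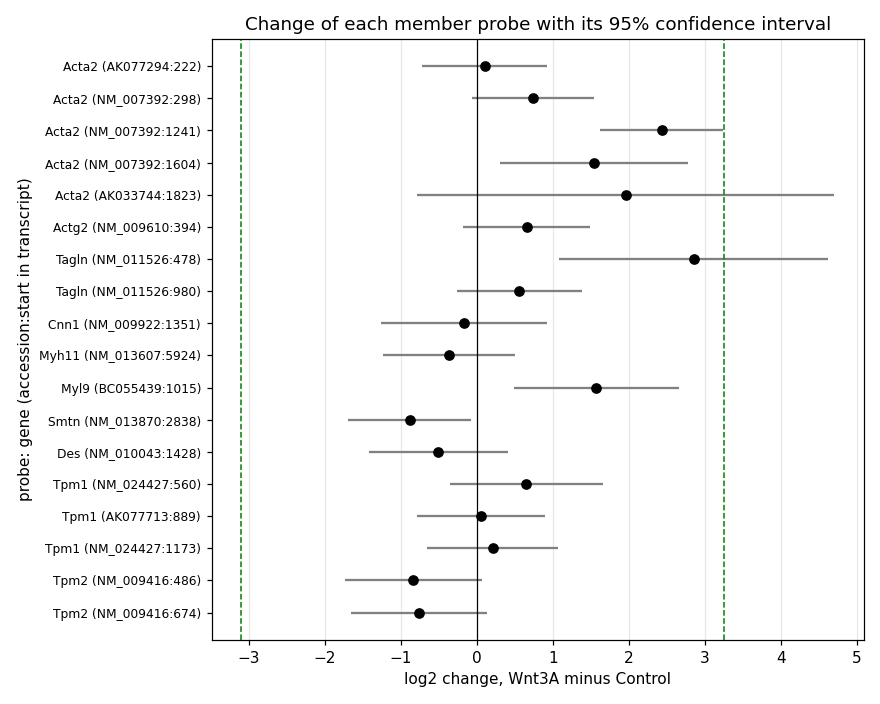
Log2 change (Wnt3A minus Control) of each member probe with its 95% interval from limma, with dashed lines at the smallest changes called over all probes, 3.25 and −3.10. No member passed the threshold, and the intervals of the Acta2 probe at base 1241, the Tagln probe at base 478, Myl9 and the Acta2 probe at base 1604 lie above 0, that of Smtn below 0.

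The promoters of the members were read for the elements that bind the factors named above. RefSeq promoter windows on build GRCm38.p6 were matched for 7 of the 10 genes, and Actg2, Tagln and Myh11 had no entry. The 250 bases before the listed start were searched on both strands, among 32851 windows of that length. A CArG box, spelled as CC, 6 letters of A or T, then GG, was found in 1.47% of all windows and, among the 7, in Myl9. With exactly 1 of the 6 inner letters replaced by C or G, a spelling chosen after the sequences were seen, it was found in 7.25% of all windows and in Myl9 and Acta2. These matches are shown with 10 bases on each side, with the box in capitals and the position of its first base counted back from the listed start.
Myl9 −161: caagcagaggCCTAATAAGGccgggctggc
Myl9 −99: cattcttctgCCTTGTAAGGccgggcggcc
Acta2 −84: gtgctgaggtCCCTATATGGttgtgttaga
Acta2 −34: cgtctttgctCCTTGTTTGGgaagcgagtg
The Myl9 stretches lie on the plus strand at chr2:156775293-156775322 and chr2:156775355-156775384. Those of Acta2 lie on the minus strand at chr19:34255438-34255467 and chr19:34255388-34255417. The MCAT element CATTCC, which TEAD factors bind, was in 12.6% of all windows and in those of Acta2, Tpm1 and Smtn. The TCF/LEF core, CTTTGA or CTTTGT, through which Wnt signalling acts on its targets, was in 27.6% of all windows and in none of the 7. These letters describe the windows and say nothing about binding in these cells.

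Of the genes that regulate this set, 22 of 24 serum response factor, myocardin and TEAD pathway genes could be tested, and 1 was called higher and 0 lower, where 0.402% and 0.241% of all genes were. Their median change was 0.27, with 16 above 0 and 6 below. The gene that rose was Mef2c, a muscle and mesenchymal transcription factor. It read 4.36 and 7.90 in the Wnt3A arrays, against 0.0701 and 0.0406 in the Control arrays, where no array was above the floor. It was at least 88.9-fold higher in Wnt3A cells, taken against the floor of each Control array. Mef2c entered the test only through the Wnt3A arrays, and its limma adjusted p of 0.0338 rests on Control readings below the floor.

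None of the central regulators passed the threshold. Srf read 7.83 and 23.2 in Wnt3A arrays, against 13.4 and 10.52 in Control arrays, and the groups overlapped. Myocd, which encodes myocardin, read 1.03 and 1.28 in Wnt3A arrays, against 1.39 and 1.33 in Control arrays, a change of −0.24 ± 0.32 (adjusted p 0.817). The myocardin-related factors gave 0.30 ± 0.39 for Mrtfa and 0.22 ± 0.46 for Mrtfb. Csrp1 and Csrp2, LIM proteins that bind actin partners and serve as cofactors of serum response factor, were higher without passing the threshold. Csrp1 read 39.6 and 49.0 in Wnt3A arrays, against 14.7 and 14.6 in Control arrays (change 1.60 ± 0.31, adjusted p 0.156). Csrp2 read 25.7 and 27.2 in Wnt3A arrays, against 6.49 and 9.29 in Control arrays (change 1.78 ± 0.33, adjusted p 0.142).

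Further smooth muscle genes were 16 above and 14 below 0 of 30 tested, with a median change of 0.13 and 0 called. Kcnmb1, a subunit of the potassium channel that relaxes smooth muscle, read 0.445 and 0.626 in Wnt3A arrays, against 0.151 and 0.212 in Control arrays (change 1.57 ± 0.36, adjusted p 0.198). Mustn1, a small nuclear protein of muscle and cartilage, read 9.89 and 3.77 in Wnt3A arrays, against 30.8 and 36.4 in Control arrays (change −2.45 ± 0.57, adjusted p 0.206). Both were among the genes with the smallest p-values of the list.

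A further list held 26 genes of the general cytoskeleton, of which actins, myosins and tropomyosins were a part. Of these, 11 were above and 15 below 0, with a median of −0.06 and 0 called. Myh10, a non-muscle myosin heavy chain, read 13.4 and 11.9 in Wnt3A arrays, against 0.186 and 0.796 in Control arrays (change 5.05 ± 0.74, adjusted p 0.101). The fitted change was −2.02 ± 0.40 (adjusted p 0.159) for Tmod3, which caps the actin filament, and 1.25 ± 0.43 (adjusted p 0.342) for the adhesion protein Vcl.

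TGF-beta and matrix genes of myofibroblasts were the list with most calls, 3 higher and 0 lower of 27 tested, where 0.402% and 0.241% of all genes were. The lists were chosen with earlier results of these data known, so this order also reflects that choice. With 19 genes above 0, the median was 0.30. That median was −0.46 in the scanner values and −0.29 with normexp and quantile normalization, and in the table it was 1.01 with the probes of a gene averaged, and 0.50 to 0.83 with 1 array left out, the highest without Wnt3A replicate 2. Postn, or periostin, a matrix protein, rose at its brightest probe (adjusted p 0.0226), with 1 of 2 probes called. It read 37.9 and 54.6 in Wnt3A arrays, against 0.0891 and 0.0554 in Control arrays, of which 1 was above the floor, so the size of the rise was not measured. Tnc, or tenascin-C, rose by 7.22 ± 0.34 (adjusted p 0.0226), with 2 of 3 probes called. Itga11, a collagen receptor subunit, was at least 256-fold higher (limma adjusted p 0.0279), since no Control array was above the floor. Postn and Itga11 entered the test only through their Wnt3A arrays, and their p-values rest in part on Control readings below the floor. Tgfb1 itself read 1.14 and 1.76 in Wnt3A arrays, against 1.80 and 2.01 in Control arrays, a change of −0.42 ± 0.36 (adjusted p 0.696).

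**Figure D4:**
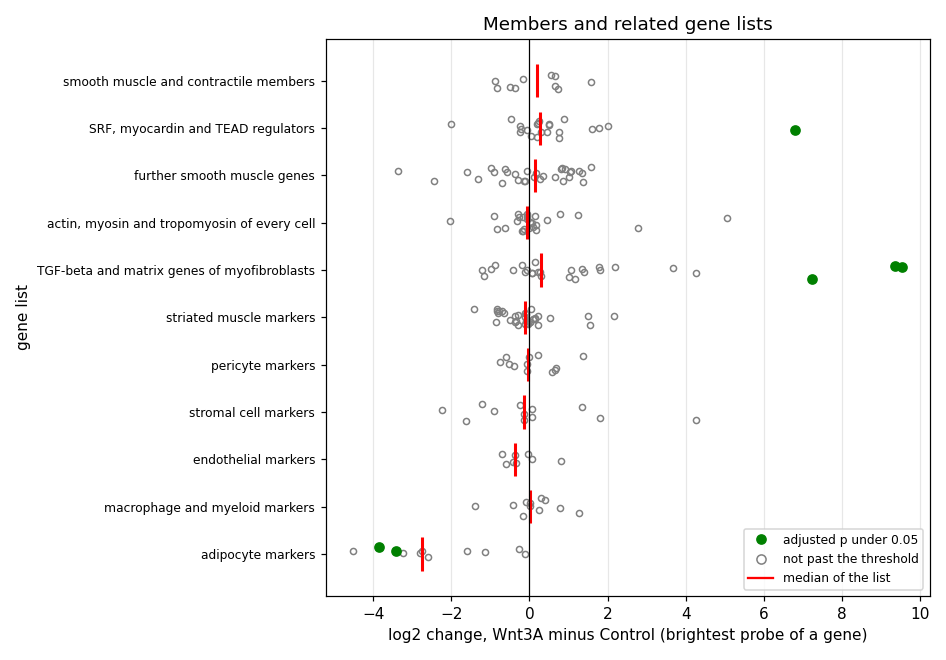
Log2 change (Wnt3A minus Control) of each tested gene by list, each point being the brightest probe of a gene, green where the limma adjusted p was below 0.05, with the list's median as a red bar. The members centre on 0.19, the adipocyte markers on −2.75, and the called genes lie in the regulator, TGF-beta and adipocyte lists.

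Markers of other cell types were read beside the members. Of 33 striated muscle markers 12 were above and 21 below 0, with a median of −0.10 and 0 called. Their summed level after scaling was 56.0 and 58.4 in Wnt3A arrays, against 36.4 and 40.5 in Control arrays, with Actc1 and Ckm at the smallest p. Without Actc1 and Acta1 the sum of the other 31 was 29.8 and 30.6 in Wnt3A arrays, against 30.9 and 31.1 in Control arrays. The creatine kinase gene Ckm had a change of 1.54 ± 0.30 (adjusted p 0.159). Of the 12 pericyte markers 5 were above and 7 below 0, with summed levels of 7.919 and 7.999 in Wnt3A arrays, against 6.23 and 6.01 in Control arrays. Their leading genes were Cspg4 at 0.68 and Anpep at 0.64, neither called.

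Endothelial markers were few, since Kdr, Tek, Tie1 and Emcn were not above the floor on both arrays of either group. The other 8 had 2 above and 6 below 0, with summed levels of 3.16 and 2.84 in Wnt3A arrays, against 2.96 and 2.81 in Control arrays, and Vwf at 0.82 and Egfl7 at −0.59 led them. Macrophage markers were 7 above and 4 below 0, with summed levels of 3.31 and 2.60 in Wnt3A arrays, against 3.52 and 2.52 in Control arrays. Cd68 at −1.38 and Lyz2 at 1.27 led that list, neither called.

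In the table, the marker list with the largest median shift was that of adipocytes, a fate that OP9 cells can take. All 11 tested adipocyte markers were below 0, with a median of −2.75, and 2 were called lower, where 0.241% of all genes were. Their summed level after scaling was 25.9 and 18.4 in Wnt3A arrays, against 192 and 222 in Control arrays. The median was −0.20 in the scanner values, 0.12 in them without Control replicate 1 and −0.08 with normexp and quantile normalization, so a shift of this size was measured in the table and not in the scanner files. In the table Lpl, lipoprotein lipase, fell by 3.42 ± 0.30 on the log2 scale (adjusted p 0.0441) and Cd36, a fatty acid transporter, fell by 3.84 ± 0.36 (adjusted p 0.0459, 1 of 2 probes called). In the stromal list, where 5 genes were above and 7 below 0, the change was 4.27 ± 0.51 (adjusted p 0.0721) for the collagen gene Col3a1 and −2.25 ± 0.39 (adjusted p 0.133) for the growth factor receptor gene Pdgfra. No gene of the list was called by its brightest probe, though 1 of the 2 Col3a1 probes was called, with a change of 5.35. With any 1 array left out, 0 of the called genes in the regulator, TGF-beta and adipocyte lists were called. The part of the adipocyte and matrix shifts in the values of the smooth muscle genes was not tested.

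The direction of the members was also read from the scanner files, in which Control replicate 1 was faint, with 41.8% of its spots well above background beside 71.6% to 85.7% in the others. All 4 columns of the table were closest in rank to the scanner file of Control replicate 2, with Spearman coefficients over spots of 0.826 to 0.845. Thus 3 of the columns were not closest to the file of their own sample, and which arrays the table was made from is not settled here. Of the 18 member probes, 9 kept the sign they had in the table and 8 had the opposite sign. Over 27648 probes tested in both sources, 50.1% had the same sign. The Acta2 probe at base 1823 was not well above background in any scanner file and was not tested there. The scanner values gave 0 higher and 2 lower calls over 28752 probes, or 0.00696%, with 750 probes at an unadjusted p below 0.05. The change of the Acta2 probe at base 298 was 0.22 with all scanner files and −0.90 without Control replicate 1. At base 1241 of Acta2 it was 0.43 and, without that file, 1.20, and for Myl9 it was 0.29 and 1.22. Smtn kept its sign at −1.54 and −0.31, while Actg2 gave −0.05 and −0.77 and the Tagln probe at base 478 gave −0.26 and −0.84, against their sign in the table.

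**Figure D5:**
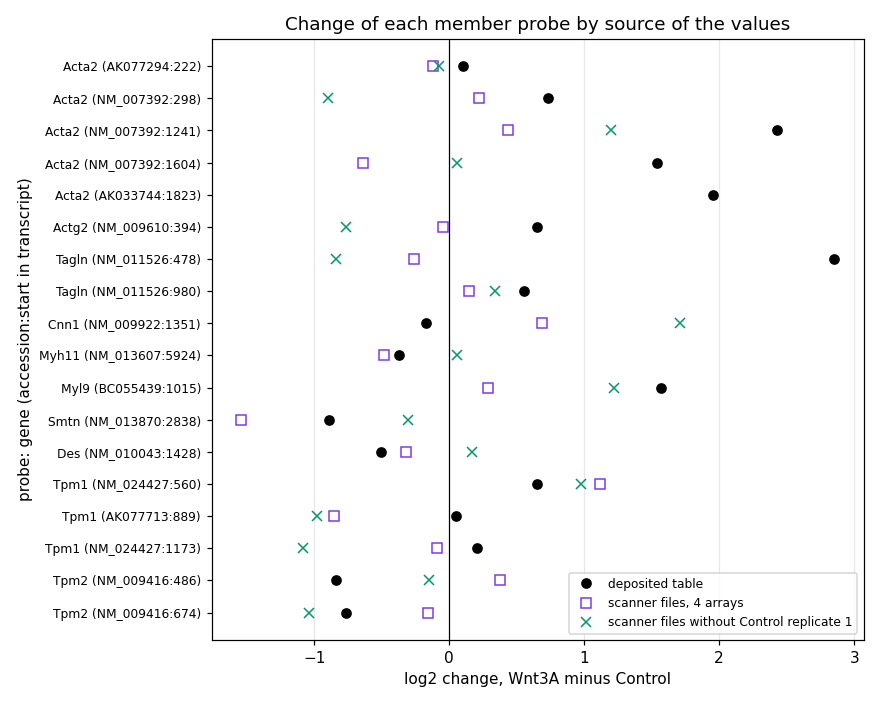
Log2 change (Wnt3A minus Control) of each member probe in the deposited table and in the scanner files, with and without the faint file of Control replicate 1. The Acta2 probe at base 1241, Myl9, the Tagln probe at base 980, Smtn, the Tpm1 probe at base 560 and the Tpm2 probe at base 674 keep their sign in every source. The Acta2 probe at base 1823 was not well above background in any scanner file, so it has no scanner change. The sign of the remaining probes turns in at least 1 scanner setting.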

How the data were processed

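RNA of 4 OP9 samples was measured on 1-colour Agilent arrays after global PCR amplification, per the labels' protocols. Whether that step altered the relative levels was not tested. The deposited table holds a linear intensity per spot, scaled by the authors so that each column has a median of 1; how is not given in the sources used here. The scanner files, per the file headers, give intensity per spot from Agilent Feature Extraction 10.5.1.1, together with flags of other kinds, deposited as 0 or 1 for background, saturation and uneven spots.

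Table rows were joined to scanner spots by feature number, for all 43379 non-control spots. Values were taken to log2, the array's 75th percentile was subtracted, and spots of a probe were averaged. Of 41174 probes, 24375 were named by accession, 6301 by symbol, 2426 by synonym and 8072 as in the file. The floor was 4.94 times the 1st percentile of each column, a factor taken from the scanner flags. Probes that exceeded it throughout at least 1 group were tested with limma 3.58.1 in R 4.3.3 (lmFit, eBayes, two-sided, 2 residual and 2.29 prior degrees of freedom), adjusted by Benjamini-Hochberg over 33709 probes. The number of arrays, 2 a group, limits the precision. A gene was represented by its brightest tested probe. The fit was also run on simulated arrays with known changes and independent normal noise. These arrays had no floor and 1 source of values, so they do not test those limits of the data. Motifs were matched to RefSeq promoter windows.

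The members and the 11 lists of related genes were chosen with earlier results of these data known. Named genes were every member probe, called genes of related lists, filled up to 3 a list by the smallest p, the 2 leading markers of each other cell type, and Srf, Myocd, Mrtfa, Mrtfb, Tgfb1, Actb, Actg1, Vim and Wnt3a. Of the lists and sequences, 1 list, 1 gene of another and 1 probe sequence are not reported here. Alternatives were scanner values, other scalings and filters, limma's trend and robust settings, a replicate block and each array left out.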

Additional observations from a re-analysis of the deposited data

How the results depend on the processing

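Against 143 probes called higher and 86 lower, the scanner values called 0 and 2, and the scanner values without Control replicate 1, or with normexp and quantile normalization, called 0 and 0. Testing without a filter gave 35 and 19, and requiring all 4 arrays above the floor gave 26 and 19. A floor 2 times as high called 131 lower, trend and robust settings called 158 lower, and leaving out any array called between 0 and 0. Member probes called higher were 2 with trend and robust settings, where the Acta2 probe at base 298 (0.73) passed with that at base 1241, and 0 otherwise. Of the genes in the related lists, 4 were called higher and 2 lower. These counts were 0 and 0 in each scanner setting and with any array left out, 1 and 0 when all 4 arrays had to be above the floor, and 8 and 4 with trend and robust settings, while testing without a filter called 0 lower.

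In the scanner values the sign was reversed for the Acta2 probes at base 1604 (−0.64) and base 222 (−0.12), Actg2 (−0.0453), Cnn1 (0.69), the Tagln probe at base 478 (−0.26), the Tpm1 probes at base 1173 (−0.0927) and base 889 (−0.85) and Tpm2 (0.37). Without Control replicate 1 they were reversed for Acta2 at base 298 (−0.90) and base 222 (−0.0761), Actg2 (−0.77), Cnn1 (1.71), Des (0.17), Myh11 (0.0616), Tagln at base 478 (−0.84) and Tpm1 at base 1173 (−1.08) and base 889 (−0.98). With normexp and quantile normalization this held for Acta2 at base 1604 (−0.14), Actg2 (−0.17), Cnn1 (0.46), Tagln at base 478 (−0.12), Tpm1 at base 1173 (−0.11) and base 889 (−0.58) and Tpm2 (0.40). In the table, leaving out 1 array gave −0.4756 to 0.1343 for Cnn1 and −0.0638 to 0.17 for Tpm1 at base 889, and no other member probe had its sign reversed. Without Control replicate 1 and without Wnt3A replicate 2, Cnn1 gave 0.0962 and 0.13 and the Tpm1 probe −0.0638 and −0.0350. The cause was not tested.

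Same-numbered arrays deviated together with a correlation of 0.0216 over 30798 probes, so the numbers were not taken to pair the samples. With the replicate block, 0 probes were called higher and 0 lower, and 0 and 0 genes of the related lists. A block for slide or scan was not run, because all 4 arrays lie on 1 slide with 1 scan. Signal over background limits the dim probes, such as Acta2 at base 1823, which was above the floor on 1 Control array.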
